A study of Mus musculus with 2 samples.

Results

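Distal convoluted tubule cells were described in single-cell RNA profiles of mouse kidneys collected on day 14 after unilateral ischaemia-reperfusion injury. Members were chosen by their measured counts, as cell barcodes with at least 5 unique molecular identifiers (UMIs) of Slc12a3, more of Slc12a3 than of Slc12a1, and none of the pan-leukocyte gene Ptprc. They numbered 604 of the 19478 barcodes kept in the series, which had 500 UMIs or more, 200 genes or more and no more than 50% mitochondrial UMIs. The control library (genotype Cre-) held 432 of them among 9452 kept barcodes. The haplodeficient library (genotype Cdh5-CreERT2; Phd3f/+) held 172 among 10026. Both groups had received 4 injections of tamoxifen after the injury, and the labels put both libraries in batch 1. Cdh5 is an endothelial cadherin gene, so the Cre recombinase that removes 1 copy of Phd3, the prolyl hydroxylase gene also called Egln3, was driven in endothelium and not in the tubule. The labels do not say whether the Cre- animals carried the floxed allele, how many animals went into a library, or their age and sex. As each group is a single library, the groups could not be tested against each other, and every interval below covers counting error only.

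The distal convoluted tubule lies between the thick ascending limb and the connecting tubule. Its luminal sodium chloride cotransporter, encoded by Slc12a3, is the target of thiazide diuretics and is switched on by a WNK and SPAK kinase cascade that the ubiquitin ligase adaptor KLHL3 restrains. The early part of the segment is known for parvalbumin, the magnesium channel TRPM6 and the precursor of epidermal growth factor (EGF). The late part adds calcium transport genes and subunits of the epithelial sodium channel.

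The members carried the other genes of the segment. Emx1, a homeobox gene that marks distal convoluted tubule, had a UMI in 75.5% of control and 73.3% of haplodeficient members, against 3.76% and 0.936% of leukocytes, in which a UMI is background. Pgam2, a muscle-type phosphoglycerate mutase also used as a marker of the segment, had a UMI in 72.2% and 48.8% of members and in 2.55% and 1.25% of leukocytes. Its level also differed between the libraries, at 217 CPM (UMIs of the gene per 1000000 UMIs, exact Poisson 95% interval 206 to 228) and 104 CPM (93.5 to 115), a log2 ratio of -1.02 that passes the size rule set out below. The median depth was 13689 and 16049.5 UMIs in members and 6631 and 5176 in leukocytes. Thick ascending limb cells of the same libraries had Emx1 at 3.16 and 2.08 CPM, where members had 157 and 112 CPM. Neither marker was particular to members. Principal cells, described below, had Emx1 at 46.1 CPM in control and 28.0 CPM in haplodeficient cells, and Pgam2 at 86.7 and 57.5 CPM. The 2 libraries shared 28 kept barcodes, none of which was a member in both. No doublet filter was applied beyond the rule itself, and 40 control and 16 haplodeficient members stood among the highest doublet scores of their libraries.

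A smaller share of the haplodeficient library passed the rule. Members were 4.57% (exact Clopper-Pearson 95% interval 4.16 to 5.01) of kept control barcodes and 1.72% (1.47 to 1.99) of kept haplodeficient barcodes, a difference of -2.85 percentage points (Newcombe interval -3.35 to -2.37). Among kept barcodes without Ptprc and with under 3 UMIs of the proximal tubule gene Slc34a1, the shares were 8.79% (7.98 to 9.66) and 3.07% (2.63 to 3.56). The rule's demand on Ptprc removed 57 and 54 barcodes with enough Slc12a3, and its demand on Slc12a1 removed 12 and 13. Fewer cells of the segment and less Slc12a3 per cell cannot be told apart from these shares, since a cell with little Slc12a3 is not a member.

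The Slc12a3 level that chose the members also differed among them. Members had 5 to 256 UMIs of Slc12a3 in the control library, with a median of 34, and 5 to 194 in the haplodeficient library, with a median of 12. Per 1000 UMIs of the cell the medians were 3.10 and 0.985. At the edge of the rule, 15 control barcodes had 4 UMIs and 15 had 5, and 66.7% and 33.3% of these had Emx1. In the haplodeficient library 19 barcodes had 4 UMIs and 11 had 5, with Emx1 in 31.6% and 36.4%. Members with at least 1 Slc12a3 UMI in 1000 numbered 347 and 84 and are called Slc12a3-high below. The remaining 85 and 88 members, with less, are called Slc12a3-low. The division is a point in a continuous range, with 36 and 32 members between 0.8 and 1.25 per 1000.

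**Figure D1:**
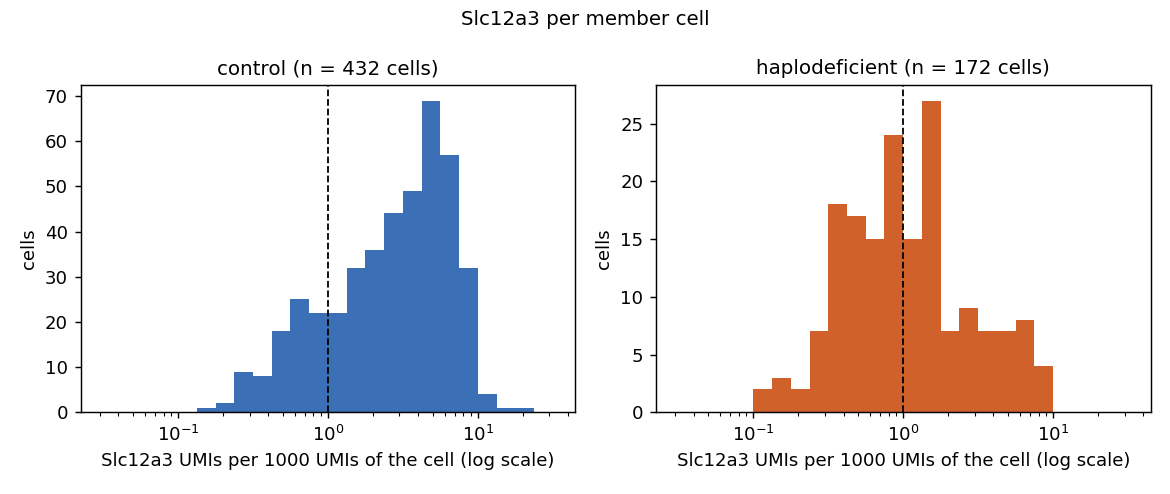
Histograms of Slc12a3 UMIs per 1000 UMIs of the cell (log axis) for the 432 control and 172 haplodeficient members, with the dashed line at 1 in 1000. The control cells peak to the right of the line (median 3.10), and the haplodeficient cells lie around it (median 0.985).

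Expression was compared by summing UMIs over the members of a library and dividing by their total, 7051173 control UMIs and 3412625 haplodeficient UMIs. Levels are given as CPM, with the exact Poisson 95% interval in brackets. Log2 ratios set haplodeficient against control with 5 CPM added to both levels, so that low genes show smaller ratios. A gene was called higher or lower when that log2 ratio was at least 1 in size and the intervals did not overlap. Of 9096 genes that averaged 10 CPM or more and had 30 UMIs or more, 121 were higher (1.33%) and 140 lower (1.54%), and the median log2 ratio of all of them was 0.08.

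Transcripts of other cell types moved with this comparison. Endothelial markers summed to 68.9 CPM in control and 198 CPM in haplodeficient members, with 3 of 5 well-measured genes called higher and none of the 8 markers at 0 UMIs. Fibroblast and pericyte markers summed to 28.8 and 221 CPM, with all 4 well-measured genes called higher and Lum at 0 UMIs in haplodeficient members. Leukocyte markers summed to 68.8 and 159 CPM, with 1 of 6 called higher. Beside Ptprc, which the rule held at 0, the T cell genes Cd3e and Cd3g and the cytotoxic cell gene Nkg7 were at 0 UMIs in control members and Cd79a, of B cells, in haplodeficient members. Members with at least 3 UMIs of these lists together numbered 69 and 61. Proximal tubule markers moved the other way, summing to 1805 and 42.5 CPM with all 8 well-measured genes called lower and Slc22a6, Slc13a3 and Slc7a13 at 0 UMIs in haplodeficient members. Among the neighbouring segments, thick ascending limb markers summed to 1567 and 483 CPM with 1 of 4 genes called lower, principal and connecting cell markers to 152 and 141 CPM with none of 3 called, and intercalated cell markers to 108 and 200 CPM with 1 of 4 called higher. Red blood cell markers summed to 1.13 and 3.22 CPM. The share of mitochondrial UMIs had a median of 15.6% in control and 5.63% in haplodeficient members. For some results below a value without them is given, and their part in the others was not tested.

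Most genes around the sodium chloride cotransporter had a lower level in the haplodeficient members, and Wnk1 differed most. Of 21 genes of sodium chloride transport 20 were measured well enough, 18 of these had a log2 ratio below 0, and the median was -0.29. The median was -0.11 among Slc12a3-high and -0.11 among Slc12a3-low members, with no gene of the list called in either. The 2 genes called lower over all members, in a comparison where 1.54% of all genes were, were Wnk1 and Ppp1r1a. Wnk1, whose kidney-specific short form is a mark of this segment, stood at 1285 CPM (1258 to 1311) in control and 548 CPM (524 to 574) in haplodeficient members. Its level was 2.34-fold lower (95% interval 2.23 to 2.46), and the 3′-end counts do not tell the short form from the long one. The gene lies at chr6:119923969-120038672 on the minus strand (GRCm38). Ppp1r1a, which encodes an inhibitor of protein phosphatase 1, was at 400 CPM (385 to 415) and 179 CPM (165 to 194). Neither gene passed the size rule among Slc12a3-high members, where the log2 ratio of Wnk1 was -0.52 and the log2 ratio of Ppp1r1a was -0.39, nor with a mitochondrial limit of 25%, where they were -0.93 and -0.88.

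Other members of the cascade differed less than the size rule asks. Wnk4, the kinase above SPAK, was at 236 CPM (225 to 247) and 210 CPM (195 to 226). Stk39, which encodes SPAK, was at 240 CPM (228 to 251) and 196 CPM (181 to 211). Klhl3, the adaptor that marks WNK kinases for degradation, was at 297 CPM (284 to 310) and 162 CPM (149 to 176), with a log2 ratio of -0.85. The basolateral exit path was lower by smaller amounts. Kcnj10, the potassium channel of the basolateral membrane, was at 169 and 116 CPM, and its partner Kcnj16 at 475 and 400 CPM. Atp1b1, the beta subunit of the sodium pump, had a log2 ratio of -0.70, while its partner Fxyd2 had -0.05.

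Epithelial sodium channel and aldosterone genes differed in both directions. None of the 8 well-measured genes was called over all members. Their median was -0.17, within a range of -0.44 to 0.57. Scnn1a, the channel's alpha subunit, was at 168 and 141 CPM, Scnn1b at 91.5 and 71.2 CPM, and Scnn1g at 29.9 and 34.6 CPM with overlapping intervals. Hsd11b2, the enzyme that shields the mineralocorticoid receptor from glucocorticoids, was on the higher side at 341 CPM (327 to 355) and 478 CPM (455 to 502). The receptor gene itself, Nr3c2, was at 298 and 237 CPM. Among Slc12a3-high members 1 of 8 genes of the list was called higher, against 0.981% of all genes. The highest log2 ratio there was 1.04 and the median -0.03. Among Slc12a3-low members none was called and the median was -0.12.

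Magnesium handling contained the genes with the largest differences of the transport lists. Egf, Pvalb and Cnnm2 were called lower among 9 well-measured genes, none was called higher, and the median was -0.31. Egf, whose product acts back on the segment to promote magnesium uptake, was at 340 CPM (327 to 354) in control and 44.5 CPM (37.7 to 52.2) in haplodeficient members, 7.64-fold lower (6.48 to 9.06). It lies at chr3:129677565-129755316 on the minus strand. Egf had a UMI in 218 of 432 control and 33 of 172 haplodeficient members, which is 50.5% and 19.2%, and in 6.17% and 2.54% of leukocytes. After each cell was thinned to 1000 UMIs, with 1 member of each library too shallow and left out, the shares of members were 22.5% (18.6 to 26.7) and 2.92% (0.956 to 6.69). In the haplodeficient library 65.8% of the Egf UMIs sat in 3 cells, against 7.29% in the control. The log2 ratio of Egf was -2.80, with -5.03 among members without a late-segment UMI and -1.94 among Slc12a3-high members. Egf stood at 2.04 times the level of free RNA, the RNA outside cells as profiled in barcodes of 1 to 100 UMIs, in the control library, which would account for 6.04% of it in control and 10.1% in haplodeficient members.

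Pvalb, the calcium-binding protein of the early segment, was at 181 CPM (171 to 191) and 36.6 CPM (30.5 to 43.6), 4.93-fold lower (4.10 to 5.98). It lies at chr15:78191114-78206400 on the minus strand. It had a UMI in 173 control members and 8 haplodeficient members, or 40.05% and 4.65%, with 0.268% and 0.0892% of leukocytes. Of the haplodeficient Pvalb UMIs 60.8% sat in 3 cells. The log2 ratio of Pvalb was -2.16, with -6.30 among members without a late-segment UMI and -1.11 among Slc12a3-high members. Among the members with a Pvalb UMI the summed Egf level was 921 CPM (883 to 960) in the 173 control cells and 741 CPM (613 to 889) in the 8 haplodeficient cells. Among members without Pvalb the Egf level was 27.5 CPM (22.9 to 32.7) and 11.1 CPM (7.74 to 15.3). In both libraries the summed Egf level was thus higher in members with a Pvalb UMI than in those without. Only 8 haplodeficient members had such a UMI. As most haplodeficient Egf UMIs, like those of Pvalb, sat in 3 cells, the level in these 8 may rest on few of them.

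The remaining magnesium genes were nearer to level. Cnnm2, a basolateral magnesium transport gene, was at 145 CPM (136 to 154) and 69.7 CPM (61.2 to 79.2), just past the size rule, and the log2 ratio of Cnnm2 was -0.88 with the mitochondrial limit of 25%. Trpm6, the luminal magnesium channel of the segment, was at 279 CPM (266 to 291) and 224 CPM (209 to 241), and its relative Trpm7 at 418 and 315 CPM. Egfr, the receptor for the Egf product, was level at 61.3 and 61.8 CPM.

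Calcium handling genes were lower over all members, with a median log2 ratio of -0.68 and 9 of 11 well-measured genes below 0. Only Kl, which encodes the FGF23 co-receptor klotho, passed the size rule, at 361 CPM (347 to 375) and 177 CPM (163 to 192), again just past it, and the log2 ratio of Kl was -0.54 with the mitochondrial limit of 25%. Slc8a1, the sodium-calcium exchanger, was at 2436 and 1280 CPM. S100g and Calb1, which encode the calcium-binding calbindins of the late segment, were at 5630 and 2831 CPM and at 1066 and 643 CPM. Trpv5, the luminal calcium channel, was at 126 and 76.5 CPM. At least 1 UMI of Slc8a1, Trpv5, Scnn1b or Scnn1g was found in 82.2% of control and 79.7% of haplodeficient members, and in 45.7% (40.9 to 50.5) and 29.8% (23.1 to 37.3) after thinning to 1000 UMIs.

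**Figure D2:**
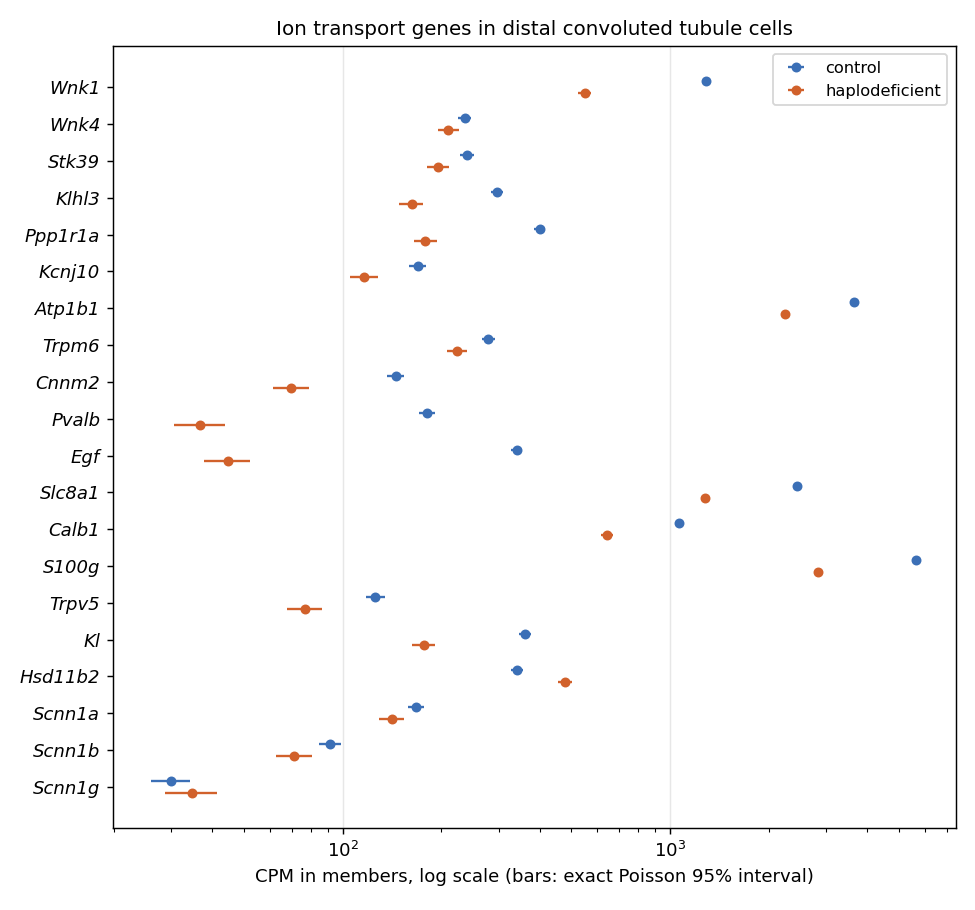
Levels of 20 ion transport genes in members, in CPM on a log axis, with 1 point per library and exact Poisson 95% intervals as bars. Egf and Pvalb show the widest gaps between libraries (340 against 44.5 CPM and 181 against 36.6 CPM), and Hsd11b2 lies on the opposite side (341 against 478 CPM).

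Divided by their Slc12a3 level, the Slc12a3-high members of both libraries had calcium genes at like levels, while Egf and Pvalb were still apart. The division uses the gene that chose the members and does not make the libraries equal in Slc12a3. Over all members the upper quartile was 5.29 Slc12a3 UMIs per 1000 in control and 1.76 in haplodeficient cells. The part of this remaining gap in the values below was not tested. In Slc12a3-high members Slc8a1 was at 3151 CPM in control and 3283 CPM in haplodeficient cells, and S100g at 7404 and 8177 CPM. Calb1 was at 1452 and 1893 CPM there, and Kl at 471 CPM (452 to 490) and 487 CPM. The median over the 11 calcium genes was 0.06 in these cells, beside 0.07 over all genes. Egf was at 461 CPM (442 to 480) and 116 CPM (97.3 to 138) in the same cells, 0.253 times the control level (0.210 to 0.302). Pvalb was at 248 CPM (235 to 262) and 112 CPM (93.2 to 133), and Wnk1 at 1645 and 1149 CPM. Emx1, which the rule did not use, was level in Slc12a3-high members at 190 and 198 CPM and in Slc12a3-low members at 70.8 and 70.1 CPM.

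Slc12a3-low members had little of the early genes in either library. Egf was at 34.6 CPM (27.0 to 43.8) and 9.58 CPM (6.004 to 14.5) in these cells, and Pvalb at 9.54 CPM and at 0 UMIs, where the interval reaches 1.61 CPM. S100g was at 1124 CPM in control and 232 CPM in haplodeficient Slc12a3-low cells, Slc8a1 at 619 and 306 CPM, and the calcium median was -0.52 beside 0.01 over all genes. In these cells fibroblast and pericyte markers summed to 2.51 CPM in control and 326 CPM in haplodeficient members and endothelial markers to 103 and 253 CPM. In Slc12a3-high members the sums were 39.1 and 5.37 CPM and 55.3 and 85.1 CPM. Their part in the differences was not tested. Slc12a3-low members had a median of 20934 and 19068.5 UMIs and Slc12a3-high members 12285 and 9460, a difference that the rule builds in, since a member with at least 5 Slc12a3 UMIs and under 1 in 1000 must be deep.

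**Figure D3:**
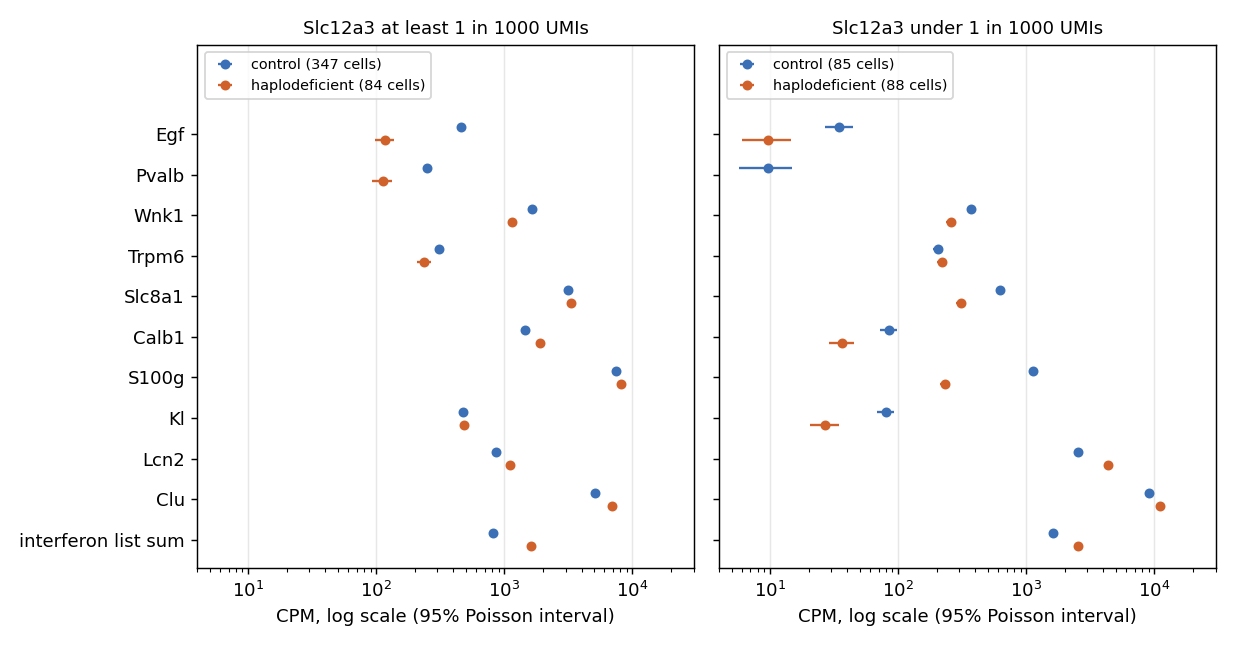
Levels in CPM (log axis, exact Poisson 95% intervals) of 10 genes and of the summed interferon list in members with at least 1 Slc12a3 UMI in 1000 (left, 347 and 84 cells) and with fewer (right, 85 and 88 cells). Slc8a1, S100g and Kl of the libraries lie close together on the left and apart on the right, while Egf differs on both sides; haplodeficient Pvalb is at 0 on the right and not drawn.

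Transcription factors of the distal nephron were measured for 12 of 15 genes, with a median of -0.38. Esrrb, an orphan nuclear receptor, was the only one called lower, at 21.7 CPM (18.4 to 25.4) and 5.57 CPM (3.35 to 8.69), and the log2 ratio of Esrrb was -0.90 with the mitochondrial limit of 25%. Its relative Esrrg was at 1255 and 868 CPM, Lhx1 at 134 and 83.8 CPM and Mecom at 1558 and 1145 CPM. Tfcp2l1, a grainyhead-family factor, was at 379 and 439 CPM, and Pax8, the nephric lineage factor, at 70.3 and 73.3 CPM.

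Umod, the uromodulin gene best known from the thick ascending limb, was at 1418 CPM (1391 to 1447) in control and 395 CPM (374 to 417) in haplodeficient members. In thick ascending limb cells, taken as barcodes with at least 5 UMIs of Slc12a1 and less Slc12a3 (891 and 946 cells), it was at 12747 and 7797 CPM. Free RNA was put at 12.3% and 9.37% of member UMIs and would account for 12.2% and 28.0% of the Umod in members. Egf in those thick ascending limb cells was at 1221 CPM (1204 to 1239) and 314 CPM (307 to 322), a log2 ratio of -1.94 beside -2.80 in members. Wnk1 was at 218 and 196 CPM in thick ascending limb cells. In principal cells, taken as barcodes with at least 5 UMIs of Aqp2 (339 and 82 cells), Wnk1 was at 174 and 159 CPM. Whether these log2 ratios differ between cell types was not tested.

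Among growth factor genes Egf stood apart from the other well-measured ligands of its family, which were level or higher in the haplodeficient members. Hbegf, a membrane-anchored ligand of the EGF receptor, was at 321 CPM (307 to 334) in control and 476 CPM (453 to 499) in haplodeficient members. Tgfa, a further ligand of that receptor, was at 11.3 CPM (8.996 to 14.1) and 17.9 CPM (13.7 to 22.96), with intervals that overlapped slightly. Nrg1, a ligand of the ERBB3 and ERBB4 receptors, was at 166 and 181 CPM. The median over the 4 well-measured ligands of 11 in the list was 0.30, with Egf the one gene called. It was -0.13 without members holding transcripts of other cell types. Among Slc12a3-high members 2 of 5 ligands had a log2 ratio below 0, Egf among them. No receptor of the family was called, and Erbb4 was at 1290 and 1131 CPM, Erbb3 at 52.2 and 48.3 CPM and Erbb2 at 30.8 and 28.4 CPM.

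Few genes of the other growth factor families were past the size rule. Fgf13, an intracellular FGF homologue that binds sodium channels, was lower, at 53.0 CPM (47.8 to 58.7) and 15.2 CPM (11.4 to 20.0), 3.48-fold (2.60 to 4.75). With Kl it was the second of 2 genes called lower in the FGF list, whose median over 6 genes was -0.14. Fgf9 was near level at 154 and 139 CPM, as was Fgfr1 at 54.7 and 61.2 CPM, and Fgfr2 was at 137 and 177 CPM. Igfbp4, which binds insulin-like growth factors, was called lower at 42.4 and 11.1 CPM, but free RNA would account for 85.8% and 61.4% of it. The IGF list had a median of -0.13 over 6 genes, with Igf1r at 274 and 202 CPM, Igfbp5 at 62.8 and 113 CPM and Igfbp7 at 1147 and 1576 CPM.

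Pdgfa, which encodes a ligand that acts on fibroblasts and pericytes, was called higher. It was at 78.9 CPM (72.4 to 85.7) in control and 174 CPM (160 to 188) in haplodeficient members, 2.20-fold higher (1.96 to 2.48), and had a UMI in 216 of 432 and 125 of 172 cells. The log2 ratio was 0.77 in thick ascending limb and 0.95 in principal cells, where Pdgfa did not reach the size rule. The log2 ratio of Pdgfa in members was 1.09, and 0.92 with the mitochondrial limit of 25%. It was the one gene called among 6 of the PDGF and VEGF list, whose median was -0.05, and Vegfa was on the lower side at 73.3 and 44.8 CPM. Tgfb2, a transforming growth factor, was called higher at 5.39 CPM (3.81 to 7.40) and 17.9 CPM (13.7 to 22.96), with 49.2% of the haplodeficient UMIs in 3 cells. Bmpr1b, a bone morphogenetic protein receptor, was called higher at 20.4 CPM (17.2 to 24.0) and 53.0 CPM (45.6 to 61.4). Neither call was kept without members holding transcripts of other cell types, where the log2 ratios were 0.70 for Tgfb2 and 0.57 for Bmpr1b. Each of these genes was the only call in its list, and the medians were 0.17 over 5 ligands and -0.05 over 10 receptors of the transforming growth factor superfamily. Gdf15, a stress-induced member of that superfamily, was at 289 and 326 CPM. No gene of the HGF and CCN list was called among 5, with a median of 0.18 and Met at 125 and 150 CPM.

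**Figure D4:**
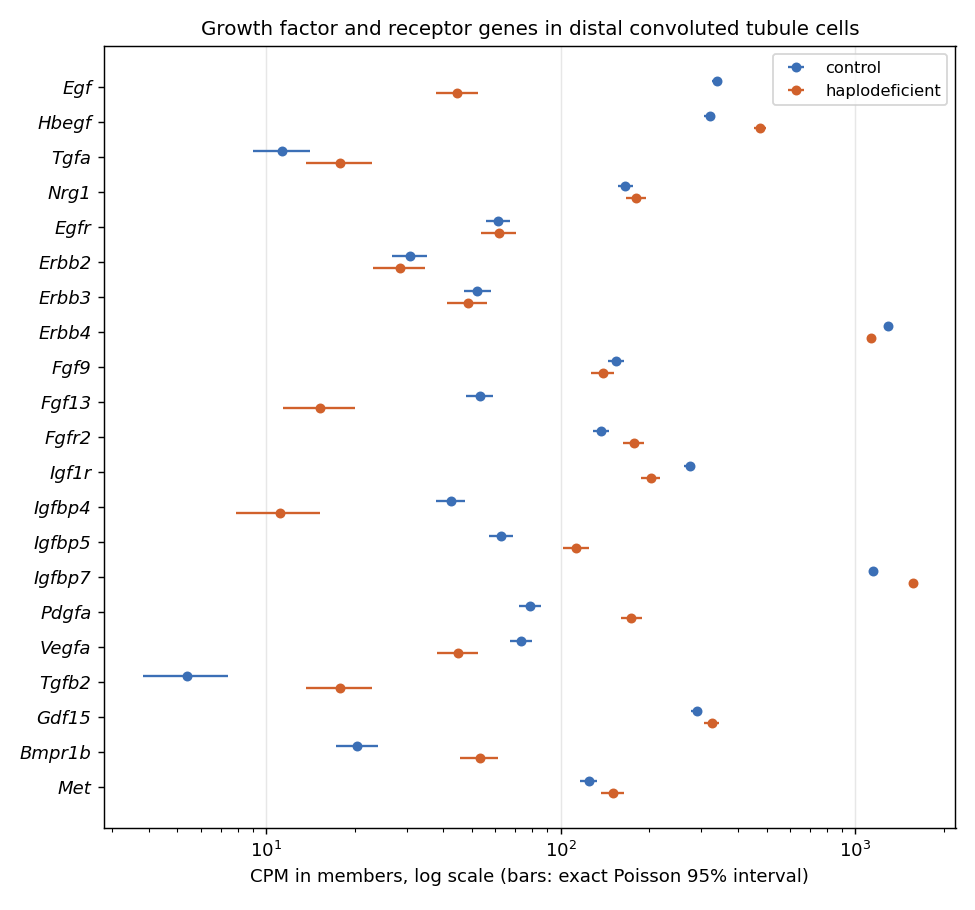
Levels of 21 growth factor and receptor genes in members, in CPM on a log axis, with 1 point per library and exact Poisson 95% intervals. Egf, Fgf13 and Igfbp4 lie lower in the haplodeficient library and Pdgfa, Tgfb2 and Bmpr1b higher, while the points of Egfr, Erbb2 and Erbb3 overlap.

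Interferon-stimulated genes were higher in the haplodeficient members as a group. Of 48 type I interferon-stimulated genes 46 were among the features and 31 were measured well enough. The log2 ratio was above 0 in 30 of the 31, the median was 0.87 beside 0.08 over all genes, and 13 were called higher and none lower, against 1.33% of all genes called higher. Ifitm3, which encodes a membrane protein that blocks virus entry, was at 102 CPM (94.7 to 110) and 376 CPM (356 to 397), 3.69-fold higher (3.37 to 4.05). Isg15, a ubiquitin-like modifier, was at 33.2 CPM (29.1 to 37.7) and 117 CPM (105 to 129), 3.51-fold higher (2.98 to 4.15). Isg15 had a UMI in 20.1% and 48.8% of members, and in 24.7% and 33.8% of leukocytes, which express it themselves.

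Other called genes of the list included a transcription factor and antiviral effectors. Irf7, the transcription factor that amplifies the response, was at 12.2 CPM (9.76 to 15.1) and 38.7 CPM (32.4 to 45.9). Bst2, the virus tether tetherin, was at 50.5 CPM (45.4 to 56.0) and 123 CPM (112 to 136), and Rsad2, the antiviral enzyme viperin, at 15.3 CPM (12.6 to 18.5) and 38.1 CPM (31.8 to 45.2). Oasl2, an oligoadenylate synthetase homologue, was at 14.5 and 51.9 CPM and Ifi27 at 125 and 305 CPM. Xaf1, Ifi44, Rtp4, Ifi35 and Ifi27l2a were called too, with log2 ratios of 1.41, 1.34, 1.34, 1.06 and 1.79. For Ifi27l2a the free RNA estimate covers 92.7% and 128% of its level, and for the other called type I genes 7.26% to 21.2%. Stat2 and Herc6 were near level, at 29.5 and 33.4 CPM and at 25.5 and 23.1 CPM.

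MHC class I presentation, which shows intracellular peptides to T cells and is raised by interferons, was higher in the same way. All 15 genes were measured, all 15 had a log2 ratio above 0, and the median was 0.94. Of them 7 were called higher, against 1.33% of all genes. H2-D1 and H2-K1, the classical heavy chains, were at 256 CPM (244 to 268) and 628 CPM (601 to 655) and at 334 CPM (321 to 348) and 693 CPM (665 to 722). Psmb8 and Psmb9, the immunoproteasome subunits, were at 48.1 and 147 CPM and at 11.2 and 35.5 CPM. H2-T23 was at 31.8 and 72.7 CPM. H2-Q6 and H2-Q7 were called too, but they are near-identical copies among which reads may have been split. B2m, the light chain shared by all class I molecules, was at 170 CPM (161 to 180) and 331 CPM (312 to 351), just short of the size rule with a log2 ratio of 0.94.

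Interferon-stimulated promoters are known to carry the interferon-stimulated response element, built on repeated GAAA. The 250 bases before the annotated start of 4 genes of these lists are shown because each holds a match to GAAA, then any 2 bases, then GAAA, on either strand. They are 5′ to 3′ on the gene's strand, from RefSeq on GRCm38.p6, with the matching bases in capitals. Isg15 is at chr4:156200819-156201068 (minus), Bst2 at chr8:71537473-71537722 (minus), Rsad2 at chr12:26456453-26456702 (minus) and B2m at chr2:122147437-122147686 (plus).
Isg15: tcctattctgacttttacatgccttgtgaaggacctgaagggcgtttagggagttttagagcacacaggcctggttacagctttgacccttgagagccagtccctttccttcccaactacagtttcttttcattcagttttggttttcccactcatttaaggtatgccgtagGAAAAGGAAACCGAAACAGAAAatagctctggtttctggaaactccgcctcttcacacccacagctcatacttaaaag
Bst2: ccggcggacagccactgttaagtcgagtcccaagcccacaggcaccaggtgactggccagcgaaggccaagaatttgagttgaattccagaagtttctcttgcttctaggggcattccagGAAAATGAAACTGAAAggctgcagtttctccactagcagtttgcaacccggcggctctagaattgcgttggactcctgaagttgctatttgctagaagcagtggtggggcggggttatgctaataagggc
Rsad2: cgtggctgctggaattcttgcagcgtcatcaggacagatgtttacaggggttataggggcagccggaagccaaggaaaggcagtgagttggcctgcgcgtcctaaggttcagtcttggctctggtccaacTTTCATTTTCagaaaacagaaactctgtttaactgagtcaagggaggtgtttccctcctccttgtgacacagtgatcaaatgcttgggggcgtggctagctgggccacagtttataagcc
B2m: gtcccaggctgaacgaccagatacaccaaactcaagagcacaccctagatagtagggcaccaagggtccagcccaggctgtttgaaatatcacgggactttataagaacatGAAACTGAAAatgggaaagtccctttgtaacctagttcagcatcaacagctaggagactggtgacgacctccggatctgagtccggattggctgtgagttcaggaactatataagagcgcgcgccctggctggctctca
The motif was searched on both strands of windows of 300 bases, these 250 and the 50 after the start. It was found for 16 of the 36 type I genes with a promoter in the table (44.4%), 11 of 15 interferon-gamma response genes (73.3%), 3 of 13 class I genes (23.1%) and 1079 of all 27025 genes (3.99%). Of the called type I genes 9 had a promoter there and 4 held the motif, Ifitm3, Isg15, Bst2 and Rsad2. A match describes letters in a window and is not evidence of binding.

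The interferon-gamma response list had a median of 0.67 over 9 genes, with all 9 above 0 and 1 called. That gene was Iigp1, an interferon-inducible GTPase, at 9.22 CPM (7.11 to 11.7) and 78.5 CPM (69.4 to 88.5), of which 57.5% of the haplodeficient UMIs sat in 3 cells. Irf1, the first transcription factor of the response, was at 156 and 196 CPM, and Cxcl10, the chemokine for T cells, at 39.6 and 53.6 CPM with intervals apart. MHC class II genes had a median of 0.60 over 4 genes with none called, and free RNA would cover over the whole level of each. Of the interferon receptors and their kinases none of 9 was called and the median was 0.28, with Ifnar1 at 20.6 and 30.5 CPM and Ifngr1 at 34.9 and 56.8 CPM. Interferon genes themselves were not measurable, with 8 of 8 at 0 UMIs in control and 7 of 8 in haplodeficient members.

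The interferon difference was spread over many cells. In cells thinned to 1000 UMIs, 56.6% (51.8 to 61.3) of control members had a UMI of the type I list, against 76.0% (68.9 to 82.2) of the haplodeficient members. The unthinned shares were 95.8% and 98.3%. Per 10000 UMIs the median control cell had 7.62 list UMIs and the median haplodeficient cell 17.6, and the upper quartile of control cells (11.3) lay near the lower quartile of haplodeficient cells (10.4). The 3 richest cells held 9.04% and 11.1% of the list's UMIs. The summed list was at 820 CPM (795 to 846) and 1614 CPM (1540 to 1690) in Slc12a3-high members and at 1621 and 2533 CPM in Slc12a3-low members, higher in the haplodeficient library in both. The type I median was 0.85 in Slc12a3-high members, with 13 of 28 genes called higher against 0.981% of all genes, and 0.38 in Slc12a3-low members, with 4 of 34 against 0.994%. Class I genes had 3 of 13 called and a median of 0.68 in Slc12a3-high members, and 1 of 15 and 0.52 in Slc12a3-low members.

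The median of the type I list was 0.89 without the 69 and 61 members that held transcripts of other cell types, and that of the class I list was 0.95. With mitochondrial genes left out of the total the type I median was 0.73, and with a mitochondrial limit of 25% it was 0.67. Without those members 10 of 27 well-measured type I genes and 5 of 14 class I genes were called higher. With the 25% limit the counts were 11 of 32 and 3 of 15, and without the highest doublet scores they were 9 of 31 and 4 of 14. Over all genes 1.33% were called higher in the main comparison, and 79 of 8943 without the highest doublet scores. The share over all genes under the other settings is not given here. Ifitm3, Isg15, Oasl2, Ifi27, H2-D1 and Psmb8 had log2 ratios above 1 in all 12 alternatives run on single genes. The log2 ratio of Rsad2 was 0.27 without the members that held transcripts of other cell types.

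The neighbouring segments showed the list higher as well. In thick ascending limb cells the median was 0.63, with 10 of 32 genes called higher against 0.653% of all genes, and in principal cells 0.58, with 10 of 37 against 0.788%. The thinned shares of cells with a list UMI were 50.8% and 76.6% in thick ascending limb, 64.0% and 82.9% in principal cells, and 89.5% and 95.5% in leukocytes. MHC class I had medians of 0.72 and 0.68 in the 2 epithelia. No test of a difference between these cell types and the members was run.

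**Figure D5:**
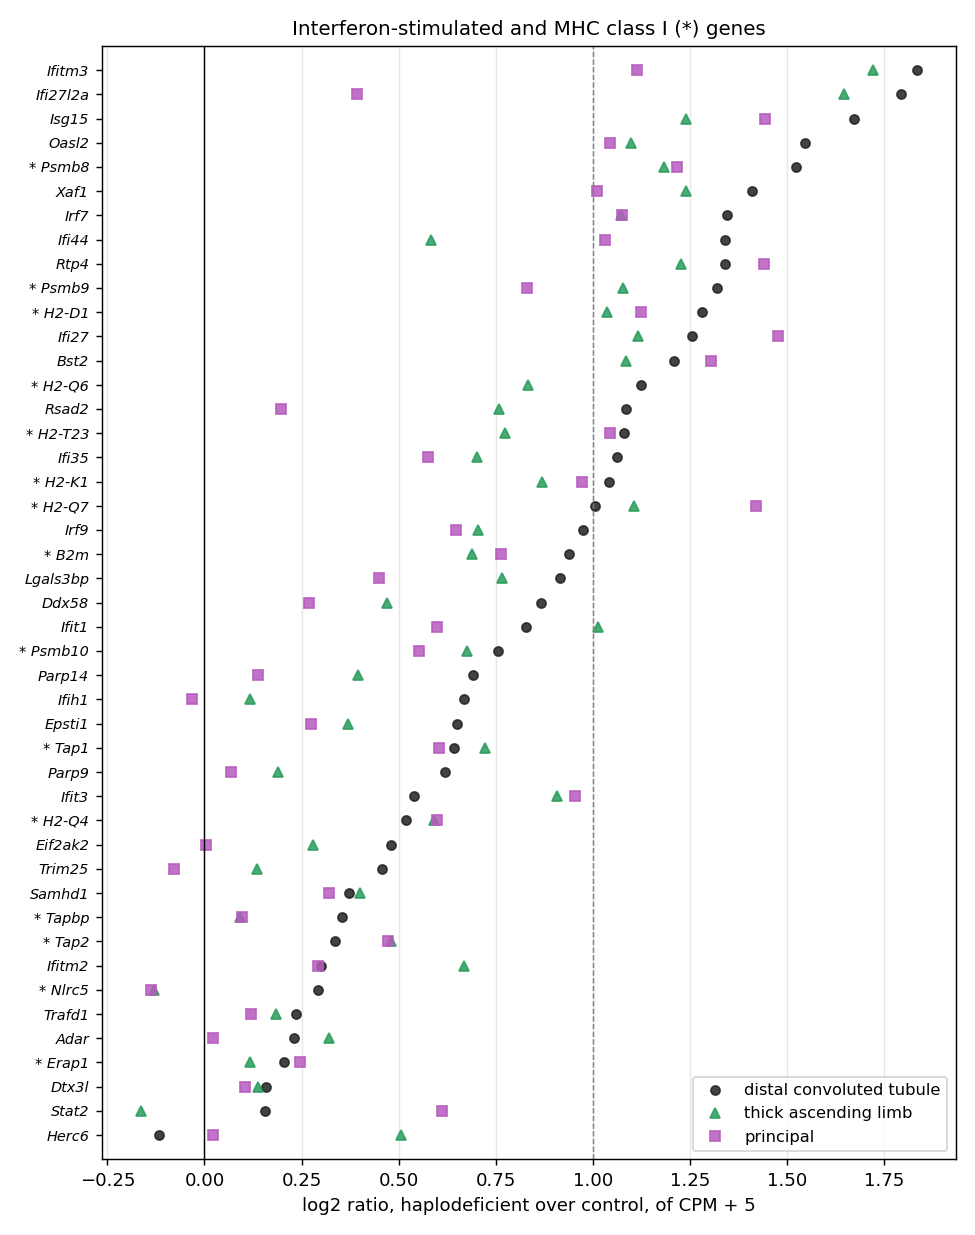
Log2 ratios, haplodeficient over control, of well-measured type I interferon-stimulated and MHC class I genes (starred) reported here, in members, thick ascending limb cells and principal cells, ordered by the value in members. Herc6 is the one gene left of 0 in members, and the dashed line marks the size rule of 1.

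Most injury genes of the tubule had a higher level in haplodeficient members, with a median of 0.81 over 15 genes. Of these 3 were called higher, against 1.33% of all genes. Lcn2, which encodes the iron-binding injury marker NGAL, was at 1330 CPM (1303 to 1357) and 3291 CPM (3230 to 3352), 2.47-fold higher (2.41 to 2.54). Anxa1 and Cxcl2 were the other two, at 101 and 222 CPM and at 59.1 and 132 CPM. With a mitochondrial limit of 25% the median was 0.62, and 1 of the 15 genes was called higher. Among Slc12a3-high members Lcn2, Anxa1 and Cxcl2 did not pass the size rule, with log2 ratios of 0.38, 0.21 and 0.73. There 3 other genes of the list did, where 0.981% of all genes were called higher. They were Cdkn1a, Tnfrsf12a and Cxcl1, with log2 ratios of 1.16, 1.11 and 1.43, and the median was 0.38. Among Slc12a3-low members the median was 0.25 over 16 genes. None was called higher there and 2 were called lower, where 219 of all 9257 genes were. Both medians lay below that of all members, of which 85 of 432 control and 88 of 172 haplodeficient cells were Slc12a3-low. Krt8 and Krt18, keratins of stressed epithelium, were at 519 and 796 CPM and at 244 and 433 CPM, and Cdkn1a, the cell cycle inhibitor p21, was at 146 and 290 CPM. Sox9, a factor of tubular repair, was at 225 and 187 CPM, and Havcr1, the injury marker of proximal tubule, lay at the level of free RNA. Lcn2 was higher in Slc12a3-low than in Slc12a3-high members of both libraries, at 2531 against 857 CPM in control and 4349 against 1114 CPM in haplodeficient cells.

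Of 17 genes that respond to tissue dissociation 1 was called higher and the median was 0.14. That gene was Atf3, a stress-induced transcription factor, at 1119 CPM (1095 to 1144) and 2337 CPM (2286 to 2388), and the log2 ratio of Atf3 was 0.88 with the mitochondrial limit of 25%. Fos was at 2338 and 3141 CPM, and Egr1 at 1336 and 1300 CPM.

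The 10 largest log2 ratios over all genes were mostly held by a few cells. Mgp led with 13.9 and 354 CPM, and 93.0% of its haplodeficient UMIs sat in 3 cells. Col1a2, Col3a1, Col1a1, Col6a1 and Lama2, all extracellular matrix genes, had 91.4% to 100% of theirs in 3 cells. Fabp4, Rgcc and Iigp1 were at or below the level of free RNA, at 41.9, 45.1 and 78.5 CPM in haplodeficient members. Klk1b22, a kallikrein-related gene with close paralogues among which reads may have been split, was spread over 67 of 172 haplodeficient and 22 of 432 control members, at 46.3 and 3.26 CPM. The 10 lowest were proximal tubule or plasma cell genes. Kap was at 1246 CPM in control and 2.34 CPM in haplodeficient members, followed by Miox, Slc34a1, Igkc, Pck1, Acsm2, Igha, Akr1c21, Spp2 and Lrp2. Free RNA would account for 78.3% to 110% of the control level of the proximal tubule genes among them. Of the control UMIs of the plasma cell genes Igkc and Igha, 97.3% and 96.2% sat in 3 cells.

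A further criterion was added after the values were seen, namely that the level in members be at least 3 times that of free RNA in the library where the gene was higher. It left 6 of 116 named genes called higher and 19 of 136 called lower. None of the 13 type I interferon genes reached it, with 0.0731 to 1.29 times the level of free RNA, and none of the 7 class I genes, with 0.189 to 0.684 times. Nor did Lcn2 at 2.89 times, Pdgfa at 2.45 times, Egf at 2.04 times or Kl at 2.29 times. Cldn7, a tight junction claudin of the distal nephron, was at 428 CPM (413 to 444) and 863 CPM (832 to 895), and Ctnnd2, a catenin, was at 75.3 and 210 CPM. Abca13, a large lipid transporter, led the 19 at 1089 CPM (1065 to 1114) and 224 CPM (209 to 241), 4.85-fold lower (4.51 to 5.23). It was found in 87.7% of control and 55.2% of haplodeficient members. Pvalb, Uroc1, Fgf13, Adamts16, Fads6, Lrrn1 and Wnk1 came next by log2 ratio.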

How the data were processed

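Single-cell RNA was captured with a droplet method, and 1 count matrix per library was analysed. The values are UMI counts per gene and barcode that the authors deposited unfiltered, made with Cell Ranger, whose version is 4 per the file headers, on mm10 per the submitters' processing notes. Aligner settings are not given in the sources used here.

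Barcodes, members and comparison cells were chosen by the UMI limits given in the text. The members and gene lists were chosen with earlier results of these data known. The control library held 134190236 UMIs and the haplodeficient library 114668145, over all barcodes. UMIs were summed over members per library and scaled to CPM, and log2 ratios used a pseudocount of 5 CPM. Genes needed a mean of 10 CPM and 30 UMIs. The size rule (log2 ratio of 1, intervals apart) is not a test. Slc12a3, Slc12a1 and Ptprc were not counted. The text names genes of the lists and, over all genes, the 10 highest and 10 lowest log2 ratios, leaving out unnamed gene models. Free RNA was profiled from 6363410 and 5499352 UMIs of barcodes with 1 to 100 UMIs. Its share in members was estimated from 47 and 40 marker genes of other cells. Thinning drew 1000 UMIs per cell without replacement. Shares have exact Clopper-Pearson intervals, and ratios have exact conditional binomial intervals, both at 95%. Scrublet scores, from scanpy 1.11.5, were used in an alternative only. Coordinates are from the GENCODE annotation of GRCm38, which matched 32158 of 32285 gene IDs. Python 3.11.15, numpy 2.4.6, scipy 1.17.1, pandas 2.3.3 and matplotlib 3.10.9 were used, and the steps were tested on simulated data. A few genes are counted in the lists and not reported here by name. Alternatives changed the mitochondrial, UMI and Slc12a3 limits, the total, scaling, pseudocount, weighting, free RNA and expression minimum. Leaving out members with transcripts of other cell types was added after the data were seen.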

Additional observations from a re-analysis of the deposited data

Results flagged for a closer look

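Calcium handling genes differed in direction between the members and thick ascending limb cells under the same comparison. The median log2 ratio was -0.68 in members and 0.22 in thick ascending limb cells. Among Slc12a3-high members alone it was 0.06, and among Slc12a3-low members -0.52. The list summed to 10376 and 5632 CPM in members, and to 1086 and 1408 CPM in thick ascending limb cells. With 1 library per group the difference was not tested.

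Mgp, the matrix Gla protein gene, differed in direction between members and principal cells. The log2 ratio of Mgp was 4.25 in members and -1.39 in principal cells. In haplodeficient members 93.0% of the Mgp UMIs sat in 3 cells, and with Slc12a3 at 1 in 1000 the log2 ratio in members was -1.80. MHC class II genes had a median of 0.60 in members and -0.65 in principal cells. The class II median in members reversed to -0.53 with at least 10 Slc12a3 UMIs, and free RNA would cover the whole level of these genes. The differences from principal cells were not tested either.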

How the results depend on the processing

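No paired analysis was possible because there is 1 library per group, and for the same reason no replicate could be left out. The depth of 172 haplodeficient members limits what can be seen of low genes. Of 68 genes called among the 231 described, 36 to 68 stayed called and 61 to 68 kept their direction, depending on the setting. Among the 68, 50 stayed called with a mitochondrial limit of 25%, and 43 without members holding transcripts of other cell types. The cause of each shift below was not tested. Members were 3.89% and 1.06% of kept barcodes with at least 10 Slc12a3 UMIs, 3.98% and 0.967% with at least 1 in 1000 UMIs in place of the 5 UMIs (376 and 97 barcodes), and 3.84% and 1.11% without members holding transcripts of other cells. The genes higher numbered 79 without the highest Scrublet scores, 327 among members without a late-segment UMI and 39 from 50 CPM, and those lower 80, 76 with free RNA subtracted, 42 from 50 CPM and 230 with no minimum, fewer or more genes being tested under the last settings. Scaling moved the split from 121 higher and 140 lower to 99 and 173 without mitochondrial genes in the total, and to 104 and 161 with median-of-ratios scaling.

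The calcium median was -0.35 with a mitochondrial limit of 25%, -0.39 with at least 10 Slc12a3 UMIs, -0.39 without other-cell members, and reversed to 0.0455 with Slc12a3 at 1 in 1000. Without other-cell members EGF ligands had a median of -0.13, HGF and CCN factors -0.30, class II genes 0.95 and injury genes 0.59. Injury genes were at 0.62 with the 25% limit, 0.41 with Slc12a3 at 1 in 1000 and 0.63 with no minimum. Transcription factors were at -0.53 without mitochondrial genes in the total. Class II genes reversed to -0.53 with at least 10 Slc12a3 UMIs, -0.0524 with 1 in 1000 and -0.0388 without the highest Scrublet scores. Among the 77 and 35 members without a late-segment UMI the medians were -0.59 for sodium chloride transport, -0.71 for magnesium, 0.96 for EGF ligands, -0.67 for FGF genes, 1.26 for type I interferon genes, -0.42 for the interferon-gamma response, 3.82 for class II genes and 1.497 for injury genes. The thinned control share of cells with a type I interferon UMI was 62.1% with the 25% limit and 44.8% with Slc12a3 at 1 in 1000.

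Single genes reversed as follows. With Slc12a3 at 1 in 1000, log2 ratios were -0.20 for Adamts4, -1.21 for Col1a1, -0.89 for Col1a2, -1.15 for Col3a1, 0.0302 for Kl, -0.21 for Lama2 and -1.80 for Mgp. Without the highest Scrublet scores they were -0.0457 for Col3a1 and -0.0457 for Lama2, without other-cell members -0.0541 for Col1a2, and with free RNA subtracted -0.16 for Ifi27l2a. Without a late-segment UMI they were -0.38 for Col1a2, -0.28 for H2-Q6, -1.32 for H2-Q7, -0.89 for Rsad2 and -0.19 for Tgfb2.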

Other observations

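Mitochondrially encoded genes were lower in the haplodeficient members as a group. All 13 measured genes had a log2 ratio below 0, 9 of them were called lower, against 1.54% of all genes, and the median was -1.26. These genes encode subunits of the respiratory chain. The difference was not particular to members. Over all kept barcodes the median share of mitochondrial UMIs was 10.2% in the control library and 2.72% in the haplodeficient library.

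Some genes far above the level of free RNA belong to no list of the report. Uroc1, the urocanase of histidine breakdown, was at 61.1 CPM in control and 15.2 CPM in haplodeficient members, and Aldoc, an aldolase, at 26.4 and 8.79 CPM. Adamts16, a secreted metalloprotease, was at 42.7 and 12.3 CPM. Dlgap1, a scaffold protein known from synapses, was on the other side at 19.4 and 47.8 CPM. Klk1b9, a kallikrein-related gene and close copy of Klk1b22, with which its reads can be confused, was at 19.1 and 48.6 CPM.

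Egf also differed among members by late-segment transcripts. In control members with a UMI of Slc8a1, Trpv5, Scnn1b or Scnn1g among 1000, Egf was at 209.8 CPM (195 to 226), and in those without it was at 464 CPM (442 to 487). In haplodeficient members the levels were 85.1 CPM (67.6 to 106) and 28.9 CPM (22.5 to 36.4).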
